A study of Rattus norvegicus with 9 samples.

Results

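The miR-34 family of the rat was followed in cultured cartilage progenitor cells through the 6 rows of the deposited miRNA table that are named for the hairpins miR-34a, miR-34b and miR-34c with a 5p or 3p suffix, out of 726 rows in all. The rows are the 2 arms of each of 3 hairpins. The filter on low counts passed 5 of them, named rno-miR-34a-5p, rno-miR-34b-5p, rno-miR-34b-3p, rno-miR-34c-5p and rno-miR-34c-3p in the table and written below without the species prefix. miR-34a-3p did not pass, with 0 to 10 reads in a library, and its values are given without a test. The cells were grown in primary culture from condylar cartilage of wild-type (WT) rats. P3 cells had been cultured to passage 3 and served as the control. P9 cells had been cultured to passage 9, the model of replicative senescence. FFSS cells were passage 3 cells placed under flow fluid shear stress, the drag of moving medium over the cell layer, and the sources used here give neither its strength nor its duration. The study set P9 and FFSS against P3 to look for what a passage model and a mechanical model of degeneration share. Each group had 3 libraries, and the labels do not say whether these came from separate cultures or animals, so a p-value here reflects just the spread among these libraries, which may be technical.

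The miR-34 genes are direct transcriptional targets of p53, the transcription factor that halts division after DNA damage and during senescence. Mir34a is made from its own transcript and is found in most tissues, whereas Mir34b and Mir34c come from a shared transcript that is best known from lung, testis and other tissues with multiciliated cells. A hairpin is cut into a 5p and a 3p arm, 1 of which usually stays bound to an Argonaute protein, and bases 2 to 8 of that arm, the seed, select the mRNAs that it represses. Known targets of the 5p arms include mRNAs of cyclins, cyclin-dependent kinases, BCL2 and the MET receptor.

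The mature sequences are shown first because the family splits by arm. All 6 rows matched a mature sequence from RefSeq (GRCr8), and the seed stands in capitals. The first 3 are the 5p arms of the family and the next 2 are seed mates from the miR-449 hairpins.
miR-34a-5p: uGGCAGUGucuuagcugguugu
miR-34b-5p: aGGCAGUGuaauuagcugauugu
miR-34c-5p: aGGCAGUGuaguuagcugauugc
miR-449a-5p: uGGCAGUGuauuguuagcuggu
miR-449c-5p: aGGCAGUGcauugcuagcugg
miR-34a-3p: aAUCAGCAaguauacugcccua
miR-34b-3p: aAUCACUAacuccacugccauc
miR-34c-3p: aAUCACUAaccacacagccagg
The seed GGCAGUG was shared by 5 of the 578 annotated rows with a matched sequence, the 3 miR-34 5p arms, miR-449a-5p and miR-449c-5p. The 3p arms of miR-34b and miR-34c shared the seed AUCACUA, which no other matched row had, and the 3p arm of miR-34a carried AUCAGCA alone. Counted from 1 at the 5′ end, miR-34b-5p and miR-34c-5p had the same base at 21 of 23 positions and differed by A11G and U23C, with the base of miR-34b-5p first. The sources used here do not say how the counter placed reads that match both. The 3p arms of the same hairpins were identical at 17 of 22 positions, and miR-34a-5p matched miR-34c-5p at 11 of 22.

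The hairpins show where the arms lie, here with both mature arms in capitals.
Mir34a: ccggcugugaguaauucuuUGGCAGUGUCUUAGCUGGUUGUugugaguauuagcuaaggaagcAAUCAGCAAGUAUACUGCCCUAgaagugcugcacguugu
Mir34b: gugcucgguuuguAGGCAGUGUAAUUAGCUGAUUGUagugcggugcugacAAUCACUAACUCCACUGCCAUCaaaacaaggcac
Mir34c: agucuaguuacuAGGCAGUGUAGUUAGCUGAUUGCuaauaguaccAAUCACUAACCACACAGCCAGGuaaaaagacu
In the RefSeq annotation of GRCr8, Mir34b and Mir34c are neighbours on 1 strand, with Mir34c inside the span of Hoatz, a gene for a ciliary protein, and Btg4 on the far side of Mir34b. Mir34a lies at another locus, inside the long noncoding RNA gene LOC103692514 and next to Gpr157. The deposited values were made on Rnor_6.0, another build, so no positions are given.

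The libraries held 2878910 to 8862560 miRNA reads, and the 2 shallowest were FFSS replicate 1 with 2878910 and FFSS replicate 3 with 3896403. Levels are given as CPM, the count scaled to the library total in the table. The mature arms were 22 or 23 bases long, so no length term was applied. The tissue label was checked against 4 arms of cartilage miRNAs, miR-140 and miR-455, whose summed level lay between 4150 and 7370 CPM in P3. It lay between 2590 and 3847 CPM in P9 and between 6077 and 7202 CPM in FFSS. The P9 sums lay below all P3 sums, although edgeR called 0 of the 4 arms (2 had an unadjusted p under 0.05, and DESeq2 called 1), and the part of that level in the results below was not tested. In bulk RNA, fewer cells that make a miRNA and less of it per cell cannot be told apart. Changes are log2 fold changes from edgeR's quasi-likelihood test with their standard errors (SE), and calls were made where the p, adjusted by Benjamini-Hochberg over the 439 miRNAs tested, was under 0.05. Both comparisons with P3 use the same 3 control libraries.

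At passage 9 the 4 arms of the miR-34b/34c cluster rose and miR-34a-5p did not pass the test. Of these arms miR-34b-5p passed the filter on low counts through its P9 libraries, so its call adds little to that of the others. In the table as a whole 3.87% of the miRNAs were called higher at passage 9 and 3.42% lower, 7.29% in all. The 5 tested arms had a median log2 fold change of 2.63, against 0.06 over all 439. miR-34b-5p is among the 5, so this median is not free of the filter's choice. Groups that did not overlap, with P9 higher, were found for 11.2% of all miRNAs and for the same 4 cluster arms. These arms come from 1 transcript and are not independent.

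miR-34c-5p is the arm that carries the shared family seed and the more abundant product of its hairpin. It was at 155, 151 and 150 CPM in the P3 libraries and at 1350, 1108 and 508 CPM in P9. Every P9 library was above every P3 library, although P9 replicate 3 lay well below the other P9 libraries. Its mean went from 152 ± 2.71 to 989 ± 433 CPM (SD, n = 3), a log2 fold change of 2.72 (SE 0.42, adjusted p = 0.00105). By mean level it moved from rank 119 of the 726 rows in P3 to rank 51 in P9.

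miR-34c-3p, the less abundant arm of that hairpin, was at 7.73, 6.11 and 6.21 CPM in P3 and at 40.7, 29.7 and 30.1 CPM in P9. The groups were again separate, and P9 replicate 3 was level with replicate 2 for this arm. The change came to 2.38 on the log2 scale (SE 0.31, adjusted p = 5.02e-04).

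miR-34b was read mainly from its 3p arm. miR-34b-3p was at 22.1, 26.3 and 10.8 CPM in P3 and at 119, 90.4 and 141 CPM in P9. P9 replicate 3, the lowest P9 library for miR-34c-5p, was the highest for miR-34b-3p. Its change was 2.63 on the log2 scale (SE 0.37, adjusted p = 6.52e-04).

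miR-34b-5p, which holds the family seed, was near the limit of detection. It had 2, 2 and 3 reads in P3 and 25, 24 and 17 reads in P9, or 0.28 ± 0.05 CPM against 2.80 ± 0.64 CPM (SD, n = 3). It passed the filter on low counts through P9, the group where it was high, and was not kept when P3 and FFSS were fitted alone. The test of P9 was therefore not free of that choice. The log2 fold change was 3.29 (SE 0.73, adjusted p = 0.0134), and the call was lost without any 1 of the P3 libraries or without P9 replicate 2 (adjusted p up to 0.0979). Its count was 0.153% to 0.225% of that of miR-34c-5p in the P3 libraries and 0.243% to 0.409% in P9. In FFSS replicates 1, 2 and 3 the share was 1.67%, 0.544% and 0%, on 4, 9 and 0 reads. These shares are those of an arm that differs from miR-34c-5p at 2 bases, and whether any of its reads belong to miR-34c-5p was not tested.

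miR-34a-5p, the family member with the highest level in P3 and FFSS, was at 349, 287 and 418 CPM in P3 and at 569, 506 and 169 CPM in P9. P9 held both the highest and the lowest of these 6 values, so the groups overlapped. The log2 fold change was 0.26 (SE 0.44, adjusted p = 0.837), an error wide enough to leave a moderate change in either direction. miR-34a-3p had 5, 0 and 3 reads in P3 and 10, 2 and 2 reads in P9.

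**Figure D1:**
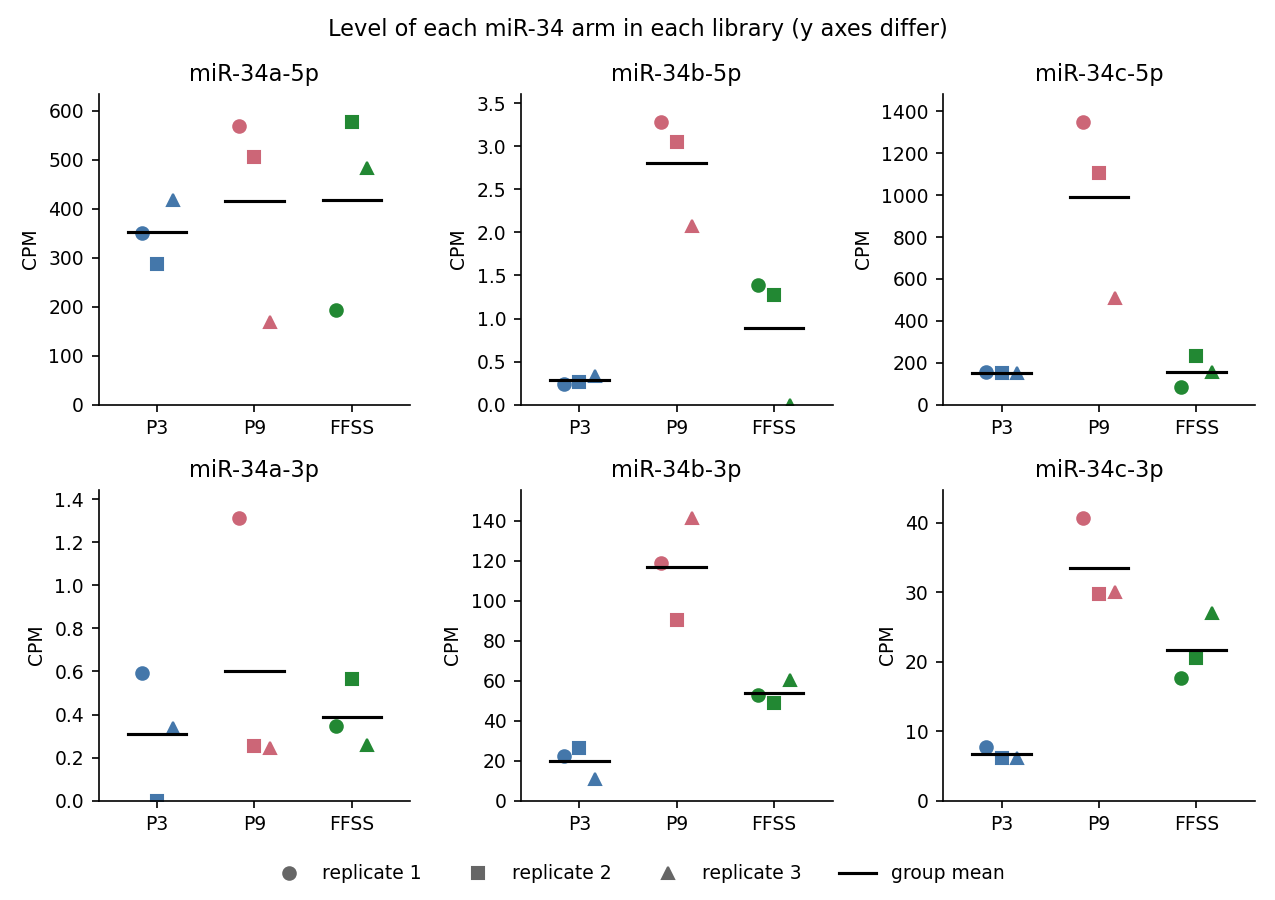
Level of each miR-34 arm in CPM (y axes differ between panels) in the 3 libraries of each group on the x axis, with the symbol giving the replicate and the bar the group mean. The 4 arms of miR-34b and miR-34c are above every P3 library in all P9 libraries, and miR-34a-5p overlaps between the groups.

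Under flow fluid shear stress the 3p arms of miR-34b and miR-34c rose, while miR-34c-5p and miR-34a-5p did not pass the test. Calls were made for 6.83% of all miRNAs in the higher direction and 13.7% in the lower, 20.5% in all. The median log2 fold change was 1.40 over the 5 tested arms, with miR-34b-5p among them, and 0.02 over all 439. In 18.9% of all miRNAs every FFSS library was above every P3 library, and among the 6 arms this held for miR-34b-3p and miR-34c-3p.

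miR-34c-3p was at 17.7, 20.5 and 26.9 CPM in FFSS, each more than in any P3 library. miR-34c-3p rose by 1.65 on the log2 scale (SE 0.30, adjusted p = 0.00674). The opposite arm, miR-34c-5p, was at 83.4, 234 and 157 CPM, values on both sides of the narrow P3 range. Its log2 fold change was 0.00 (SE 0.39, adjusted p = 0.993), and its sign turned in several other fits.

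miR-34b-3p was at 52.8, 48.9 and 60.3 CPM in FFSS, again with no overlap with P3. The log2 fold change was 1.40 (SE 0.36, adjusted p = 0.0219), and leaving out replicate 1 or 3 of P3, or replicate 3 of FFSS, ended the call (adjusted p up to 0.102). miR-34b-5p had 4, 9 and 0 reads in FFSS, and the 0 in replicate 3 allows a level of up to 0.770 CPM at that depth, taking 3 reads as the limit. Its log2 fold change of 1.62 (SE 0.86) did not pass, at an adjusted p of 0.192.

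miR-34a-5p spread as widely in FFSS as in P9, at 193, 577 and 482 CPM. FFSS replicate 1, the shallowest library, was the lowest for miR-34a-5p, miR-34c-5p and miR-34c-3p of its group. The log2 fold change of miR-34a-5p from P3 was 0.19 (SE 0.44, adjusted p = 0.793). miR-34a-3p had 1, 4 and 1 reads in FFSS.

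Between the models, miR-34c-5p and miR-34b-3p were higher in P9 than in FFSS. In this comparison 22.6% of all miRNAs were called higher and 11.8% lower, 34.4% in all, and P9 was above FFSS without overlap in 23.0%. miR-34c-5p differed by 2.72 on the log2 scale (SE 0.42, adjusted p = 6.87e-04), with the lowest P9 library at 508 CPM and the highest FFSS library at 234 CPM. miR-34b-3p differed by 1.23 (SE 0.36, adjusted p = 0.0185), and that call was lost without FFSS replicate 3 (adjusted p = 0.0588). miR-34c-3p at 0.73 (SE 0.29, adjusted p = 0.068) and miR-34b-5p at 1.67 (SE 0.68, adjusted p = 0.0709) missed the threshold, although neither overlapped between P9 and FFSS. Both passed without P9 replicate 3, at an adjusted p of 0.0396 for miR-34c-3p and 0.042 for miR-34b-5p. The arms called there went from 2 to 4. miR-34b-5p had passed the filter on low counts through P9. Its test here, its lack of overlap and its place among the 4 were not free of that choice. For miR-34a-5p the difference was 0.08 (SE 0.44, adjusted p = 0.901).

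The order of the groups therefore varied by arm. For miR-34b-3p and miR-34c-3p it was P3, FFSS and P9 from low to high, with no overlap between neighbours, and for miR-34c-3p the step from FFSS to P9 missed the threshold. Over all miRNAs, FFSS lay above P3 without overlap in 18.9% and P9 above FFSS in 23.0%. How many miRNAs showed both steps was not counted. For miR-34c-5p and miR-34b-5p the P3 and FFSS libraries overlapped and the P9 libraries lay above both, a step from FFSS that passed the test for miR-34c-5p alone of these. No order could be read for miR-34a-5p or miR-34a-3p, whose groups overlapped in each pair.

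**Figure D2:**
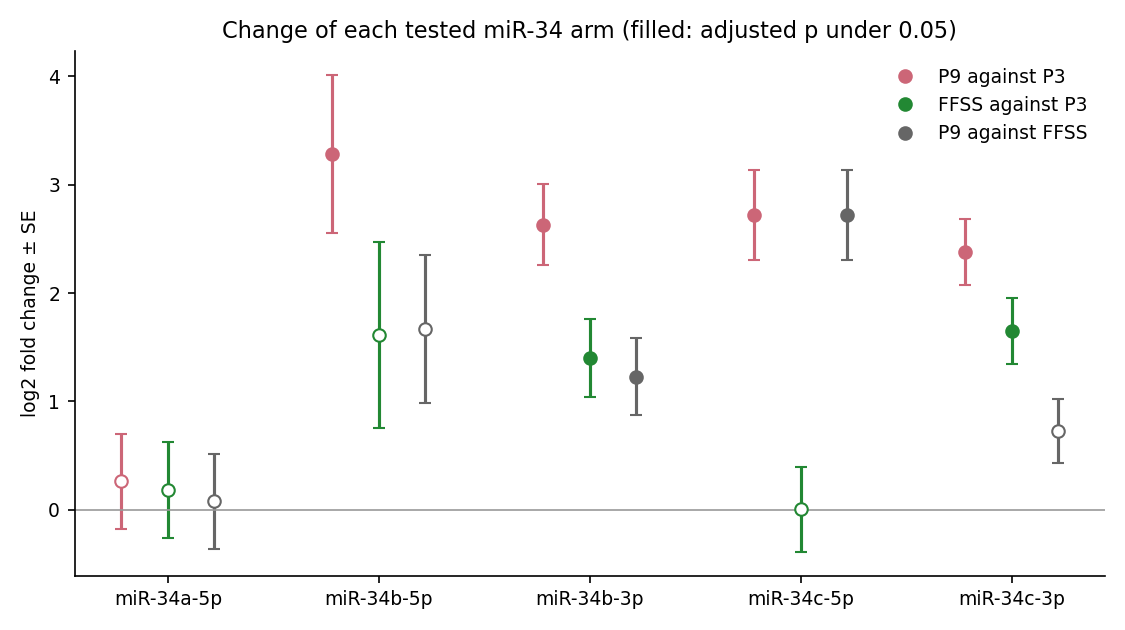
Log2 fold change (y axis) of the 5 tested miR-34 arms (x axis) in each comparison, with bars of 1 SE and filled points where the adjusted p was under 0.05. miR-34c-5p was at 2.72 for P9 and 0.00 for FFSS against P3, whereas its 3p arm was at 2.38 and 1.65.

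The 3 hairpins differed in the arm that was read, and the balance of miR-34c shifted under shear stress. Of the miR-34a reads 99.8% to 100% fell on the 5p arm in each library. Of the miR-34b reads 0% to 3.27% did, so the 3p arm dominated that hairpin in all 9 libraries. In FFSS replicate 3 the share was 0 of 235 reads, with a 95% Wilson interval up to 1.61%. Such intervals, and the limit of 3 reads, cover counting error only.

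For miR-34c the 5p share was 95.3%, 96.1% and 96.0% in P3 and 97.1%, 97.4% and 94.4% in P9. In FFSS it was 82.5% (95% Wilson interval 77.7% to 86.4%), 91.9% (90.6% to 93.1%) and 85.4% (82.6% to 87.8%). All 3 FFSS libraries lay below all P3 and P9 libraries. How many other hairpins were separate in this way was not counted, and a general shift in FFSS is given below. Expressed as reads of the 5p arm for each read of the 3p arm, P3 held 19.96, 24.5 and 24.0, P9 held 33.1, 37.2 and 16.9, and FFSS held 4.67, 11.4 and 5.81.

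Since both arms are read in 1 library, no scaling enters this ratio, and it was compared by limma over the 89 hairpins with a mean of at least 20 reads on each arm. For miR-34c the log2 ratio of 5p to 3p was 1.75 lower in FFSS than in P3 (difference −1.75, SE 0.43, adjusted p = 0.0357). With a minimum mean of 5 reads on each arm, which took in 128 hairpins, the difference was the same and the call was lost (adjusted p = 0.0601). Of the 89 hairpins 3 were called lower there (3.37%) and 1 higher (1.12%), and 28 had an unadjusted p under 0.05. The difference of miR-34c was the third lowest of the 89. Between P9 and FFSS the ratio of miR-34c was higher in P9 by 2.02 (SE 0.43, adjusted p = 0.0156), a direction in which 5.62% of hairpins were called (2.25% in the other). Between P9 and P3 it differed by 0.27 (SE 0.43, adjusted p = 0.989), and limma called 0 hairpins (0.00%) in either direction, with 2 of 89 at an unadjusted p under 0.05.

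The lower ratio in FFSS was not confined to miR-34c. Over all 89 hairpins the median difference between FFSS and P3 was −0.25, and 55 hairpins had a negative difference. By library, the median hairpin differed from the P3 mean by −0.34, −0.19 and −0.34 in FFSS replicates 1, 2 and 3. The corresponding values of miR-34c were −2.28, −0.999 and −1.97. The general shift was thus in the same direction and smaller in each library, and its part in the result for miR-34c was not tested. The miR-34c shift was smallest in FFSS replicate 2, the deepest FFSS library with 7082142 reads. It was larger in FFSS replicates 1 and 3, the shallowest libraries, with 2878910 and 3896403 reads. The part of depth in this ratio was not tested either. The FFSS call was also lost without any 1 P3 library, FFSS replicate 1 or FFSS replicate 3, at an adjusted p of up to 0.147. The P9 against FFSS call was lost without P9 replicate 1, P9 replicate 2, FFSS replicate 1 or FFSS replicate 3 (adjusted p up to 0.109).

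**Figure D3:**
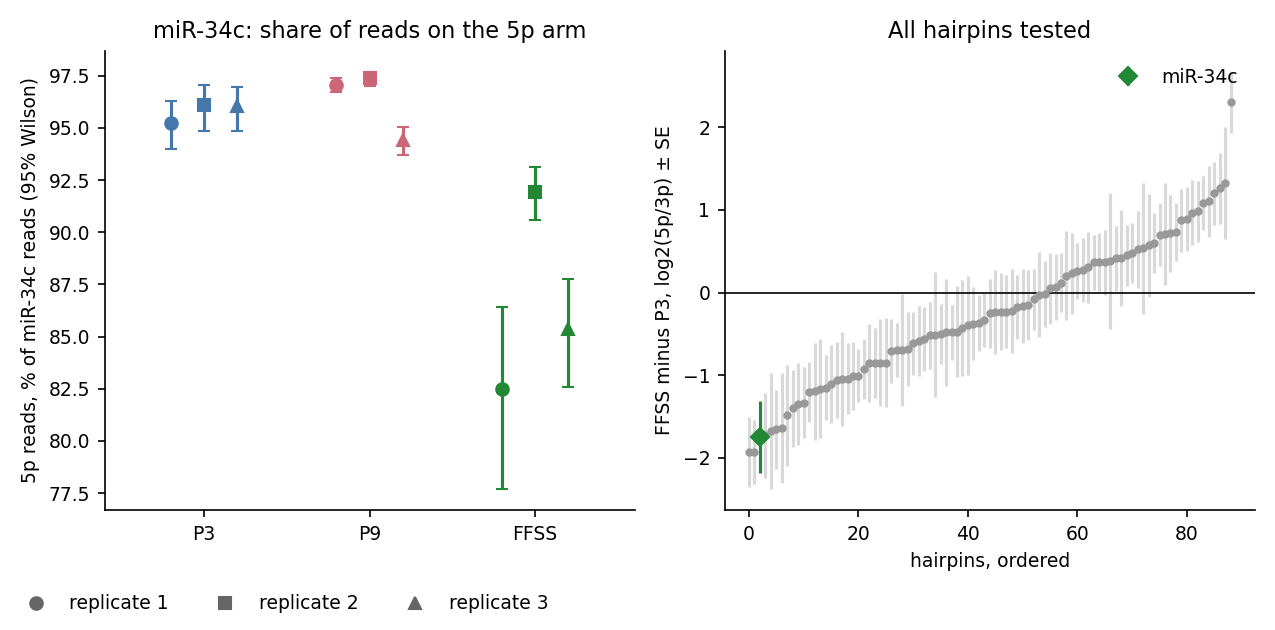
Left: share of miR-34c reads on the 5p arm in percent (y axis, which does not start at 0) in each library by group, with 95% Wilson intervals. Right: difference between FFSS and P3 in the log2 ratio of 5p to 3p reads (bars of 1 SE) for the 89 hairpins in order of size, with miR-34c, at −1.75, marked as a diamond.

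The 2 loci were then set against each other within each library. The summed reads of miR-34b and miR-34c for each read of miR-34a came to 0.530, 0.640 and 0.401 in P3, to 2.65, 2.43 and 4.02 in P9, and to 0.801, 0.527 and 0.507 in FFSS. Cluster reads were thus fewer than miR-34a reads in all P3 and FFSS libraries and more numerous in all P9 libraries. P9 replicate 3, the lowest P9 library for the 5p arms of both loci, had the highest ratio of the 9 libraries.

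The groups differed in this ratio by an exact permutation test over all assignments of the libraries to 3 groups (p = 0.0214, or 0.0429 adjusted over 2 ratios, where the smallest p is 0.00357). From the 3p arms alone, where miR-34a has 0 to 10 reads, p was 0.411. With libraries exchanged only within a replicate number, the exact permutation p was 0.0556. That test has fewer assignments and a larger smallest p, so its p is not on the same footing. P9 was above P3 by 2.52 on the log2 scale, a 5.75-fold difference in the ratio, and above FFSS by 2.31. With 3 libraries against 3 the exact two-sided permutation test cannot go below p = 0.1, which both of these reached (0.2 adjusted over 6 contrasts). FFSS and P3 differed by 0.22 (exact permutation p = 0.6).

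Within the cluster, the reads of miR-34c for each read of miR-34b were 7.28, 5.91 and 13.9 in P3. They were 11.4, 12.2 and 3.75 in P9 and 1.86, 5.06 and 3.05 in FFSS. All FFSS libraries were below all P3 libraries, by a mean of 1.46 on the log2 scale (difference −1.46, exact permutation p = 0.1, the smallest possible). The test over the 3 groups gave an exact permutation p of 0.111, and 0.0357 without P9 replicate 3. From the 3p arms alone FFSS and P3 differed by 0.14 in the other direction (exact permutation p = 0.8), so the 3p reads did not show the lower ratio.

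**Figure D4:**
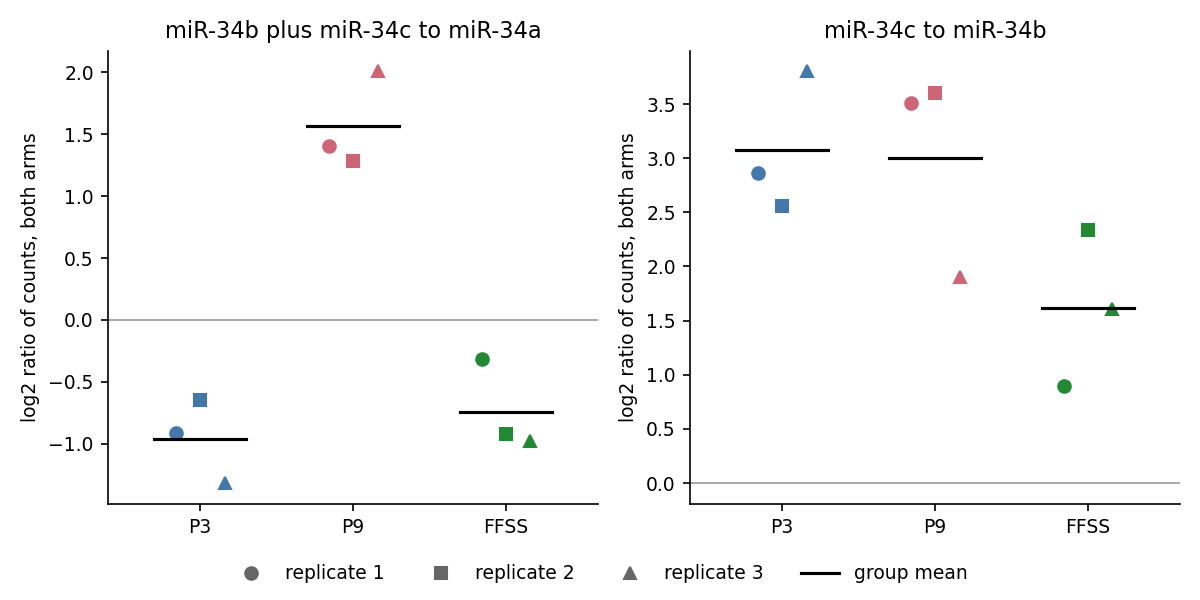
Log2 ratio of reads (y axes, both arms counted) of the miR-34b/34c cluster to miR-34a (left) and of miR-34c to miR-34b (right) in each library by group, with a bar at the group mean. The 3 P9 libraries are the only ones above 0 on the left, and FFSS lies below P3 on the right.

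Read as a pool of 1 seed, the 5 rows with GGCAGUG came mainly from miR-34a in P3 and FFSS and mainly from miR-34c in P9. Their summed level was 511, 442 and 576 CPM in P3, 1950, 1638 and 685 CPM in P9, and 282, 821 and 649 CPM in FFSS. miR-34c-5p supplied 30.3% ± 4.08 of the pool in P3, 70.4% ± 3.46 in P9 and 27.4% ± 2.80 in FFSS (SD, n = 3). miR-34a-5p supplied 68.7% ± 3.77, 28.3% ± 3.19 and 71.0% ± 3.00.

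In P9 and FFSS the size of the pool varied more within the group than the share of miR-34c-5p did. In P9 replicate 3 the pool was the smallest of its group at 685 CPM, and miR-34c-5p still made up 74.2% of it, against 69.2% and 67.6% in the other P9 libraries. In FFSS replicate 1 the pool was 282 CPM, and the share of miR-34c-5p was 29.5%, against 28.4% and 24.2%. miR-34b-5p held 0% to 0.492% of the pool in any library.

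The miR-449 hairpins, whose 5p arms repress many of the same mRNAs and which are known from multiciliated epithelium, added 0.662% to 1.48% of the pool. miR-449a-5p was at 5.71, 2.53 and 6.66 CPM in P3, at 25.1, 19.4 and 5.01 CPM in P9, and at 3.82, 8.896 and 9.24 CPM in FFSS. P9 replicates 1 and 2 were high and P9 replicate 3 fell within the P3 range, as the 5p arms of miR-34a and miR-34c were also lowest there. From P3 to P9 it changed by 1.76 on the log2 scale (SE 0.55, adjusted p = 0.0707), and it passed without P9 replicate 3 (2.18, adjusted p = 0.00203). From P3 to FFSS it was 0.53 (SE 0.55, adjusted p = 0.495). miR-449c-5p had 0 to 18 reads in a library and was not tested.

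**Figure D5:**
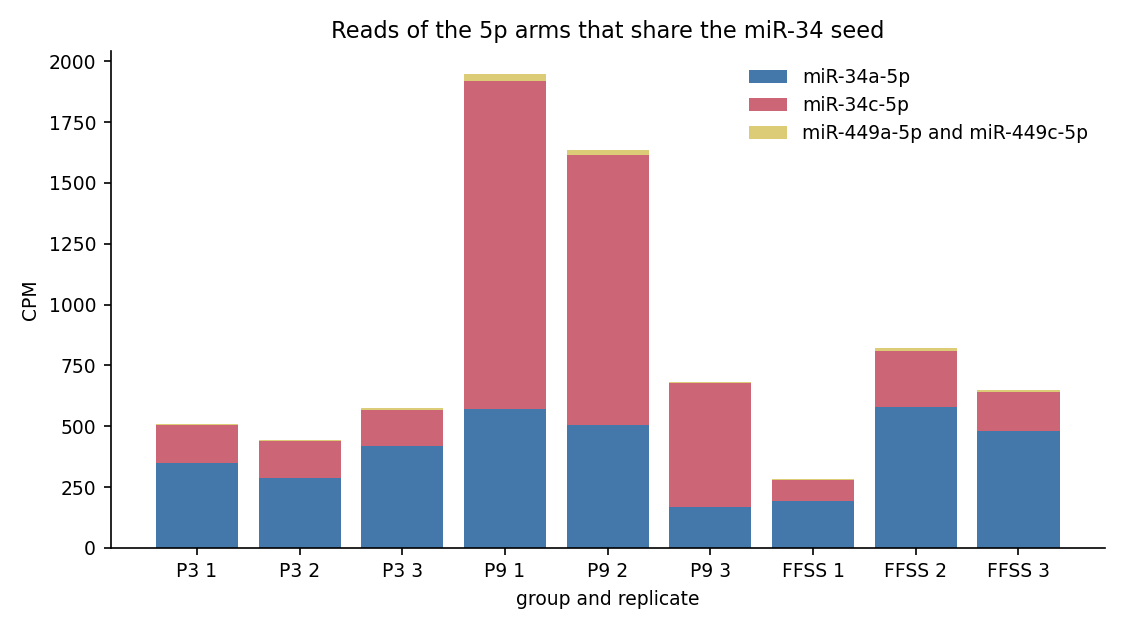
Summed level in CPM (y axis, from 0) of the 5p arms with the seed GGCAGUG in each library (x axis), stacked by miRNA, with miR-34b-5p left out because it held at most 0.492% of the pool. miR-34c-5p is the largest part in the 3 P9 libraries, and miR-34a-5p is in the 6 others.

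Other miRNAs linked to p53 gave a setting for the family. Of 19 arms listed as transcribed or processed under p53, 16 were in the table and 11 were tested. At passage 9 edgeR called 1 of the 11 higher and 0 lower (4 had an unadjusted p under 0.05, and DESeq2 called 2), with a median log2 fold change of 0.19. Over all miRNAs 3.87% were called higher there and 3.42% lower. Under shear stress edgeR called 0 higher and 1 lower (1 at an unadjusted p under 0.05, and 1 by DESeq2), with a median of −0.26. There 6.83% of all miRNAs were called higher and 13.7% lower, so counts of 1 in 11 do not set the list apart. The P9 count went from 1 to 3 without P9 replicate 3, without FFSS replicate 1, with no filter and after thinning, and the FFSS count was 1 in each setting tried. The 1 that rose in P9 was miR-143-3p, from 62078 ± 6073 to 154434 ± 22304 CPM (1.35, SE 0.24, adjusted p = 0.00348), a miRNA of smooth muscle and mesenchymal cells. The 1 that fell in FFSS was its cluster partner miR-145-5p, from 5958 ± 581 to 2047 ± 705 CPM (−1.57, SE 0.34, adjusted p = 0.00944).

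Between P9 and FFSS 4 of the 11 were higher in P9, with a median of 0.76, where 22.6% of all miRNAs were called higher. The number called was 3 to 6 without 1 library, and miR-145-3p was lost without FFSS replicate 3 (adjusted p = 0.0531). The 4 were arms of the miR-143/145 cluster, whose maturation p53 is known to promote. They differed by 1.48 for miR-143-3p (adjusted p = 7.24e-04), 1.65 for miR-143-5p (0.00583), 2.61 for miR-145-5p (4.53e-04) and 1.19 for miR-145-3p (0.0159). miR-107-3p, another p53-linked miRNA, was at 0.76 (adjusted p = 0.104).

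The same cluster gave most of the rows nearest to miR-34c-5p over the 9 libraries, with miR-221-3p, which is not of that cluster, among them. Likeness was the root mean square difference of log2(CPM + 1), each centred on its own mean. It was taken among 178 annotated rows of at least 50 CPM outside the miR-34 family. The nearest were miR-143-3p (0.679), miR-143-5p (0.736), miR-221-3p (0.762), miR-145-5p (0.777) and miR-145-3p (0.811). miR-34c-5p itself varied by 1.33 on that scale, so the likeness was partial. Nearest to miR-34a-5p, which varied by 0.618, were miR-181a-5p (0.303), miR-872-5p (0.334) and miR-148b-3p (0.356).

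Of 5 miRNAs reported to repress p53 mRNA, 4 were tested, and edgeR, DESeq2 and limma-voom each called 0 in both comparisons with P3. An unadjusted p under 0.05 was found for 0 of them in P9 and for 1 in FFSS, miR-25-3p. miR-25-3p was lower in P9 than in FFSS (−0.80, SE 0.29, adjusted p = 0.0468). That call was lost in 8 of the 9 fits without 1 library and in 6 of 13 other settings, and without FFSS replicate 1 the value was −0.38 (adjusted p = 0.287). Its log2 fold change was 0.77 in FFSS against P3 (SE 0.29, adjusted p = 0.073).

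Markers of other cell types were measured beside the family. The 3 detected arms of the multiciliated list, all from miR-449, summed to 2.92 to 7.45 CPM in P3, 5.14 to 27.3 CPM in P9 and 4.17 to 9.50 CPM in FFSS. The 8 epithelial rows summed to 81.5 to 102 CPM, 25.8 to 77.9 CPM and 90.7 to 227 CPM in the same order, and the 7 blood rows to 75.8 to 157 CPM, 69.6 to 308 CPM and 167 to 592 CPM. The 5 muscle rows summed to 141 to 158 CPM, 151 to 534 CPM and 189 to 538 CPM, and the 2 endothelial rows to 386 to 406 CPM, 275 to 490 CPM and 556 to 695 CPM.

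In FFSS 1 epithelial and 1 blood row rose against P3, miR-200b-3p at 1.53 (SE 0.47, adjusted p = 0.0399) and miR-142-5p at 1.53 (SE 0.49, adjusted p = 0.0437), where 6.83% of all miRNAs were called higher. All 4 tested blood rows had a positive value in FFSS, 3 of them with an unadjusted p under 0.05, and DESeq2 called 3 and limma-voom 1. All 6 tested epithelial rows were positive too, 1 with an unadjusted p under 0.05, and DESeq2 called 1 and limma-voom 0. In P9 edgeR called 0 of the 6 epithelial, 4 blood, 4 muscle, 2 endothelial and 1 multiciliated rows that were tested against P3. The multiciliated row, miR-449a-5p, was the 1 among these with an unadjusted p under 0.05 and was called by DESeq2. The summed blood, muscle and endothelial rows lay above all P3 libraries in all FFSS libraries, which held for 18.9% of all miRNAs taken singly. Of the rows tested in FFSS against P3, edgeR called 0 of 4 muscle and 0 of 2 endothelial rows. The part of these markers in the results for miR-34 was not tested.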

How the data were processed

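Small RNA of 9 rat libraries had been ligated to adapters and size-selected, per the labels' protocols. Read counts for 726 miRNA rows and a TPM value for each were deposited by the authors, per the file headers. The deposited TPM was the count scaled to the table's total (CPM) with no length term, to within 4.85e-05. Per the submitters' processing notes, Bowtie and Rnor_6.0 were used. The sources used here do not give the counter or the annotation release. No column was left unused.

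The miR-34 rows were matched by name, and sequences come from the RefSeq table of GRCr8. Counts were tested in R 4.3.3 with edgeR 4.0.16: filterByExpr (439 rows kept, 0.00685% of reads removed), TMM scaling, 1 model without intercept of the 9 libraries in 3 groups, and the robust quasi-likelihood test with Benjamini-Hochberg adjustment over the 439. The log2 ratio of arms, with 0.5 added to each count, was compared over 89 hairpins by limma 3.58.1. Ratios between hairpins were compared by exact two-sided permutation tests in scipy 1.17.1. The edgeR fit was run on simulated counts with known changes in P9, and the outcome is not reported here. The arm ratios and the permutation tests were not simulated.

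The members, lists and tests were chosen with earlier results of these data known. Named, by rule, are the members, their seed mates with a mean of at least 10 reads, called members of the p53 lists and up to 4 others, up to 4 members of each marker list with the highest level, and the 5 rows nearest to miR-34c-5p and 3 nearest to miR-34a-5p. miR-449c-5p, below that minimum, and the called marker rows were named after their values were seen. Alternatives were other scalings and filters, limma-voom, limma-trend (log2 of TPM with 1 or 10 added), DESeq2 1.42.0, 2-group fits, a replicate block, thinning to 2878910 reads, miR-34b-5p and miR-34c-5p summed as 1 row, other pseudocounts and arms, and leaving out each library.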

Additional observations from a re-analysis of the deposited data

Results flagged for a closer look

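The response of 3 measures differed between the passage model and the shear stress model, by the test of P9 against FFSS, which is the difference between the 2 comparisons with P3. In that test edgeR called 22.6% of all miRNAs higher in P9 and 11.8% lower. P9 lay above FFSS without overlap in 23.0%. miR-34c-5p was higher in P9 than in FFSS by 2.72 on the log2 scale (SE 0.42, adjusted p = 6.87e-04), with 3 of 3 P9 libraries above all FFSS libraries. miR-34b-3p was higher in P9 by 1.23 (SE 0.36, adjusted p = 0.0185), also in 3 of 3 libraries, after a change against P3 that passed in both models. Its call between P9 and FFSS was lost without FFSS replicate 3 (adjusted p = 0.0588). The log2 ratio of 5p to 3p reads of miR-34c was higher in P9 by 2.02 (SE 0.43, adjusted p = 0.0156 by limma over 89 hairpins), again in 3 of 3 libraries. In that direction 5.62% of hairpins were called. The call of miR-34c was lost without P9 replicate 1 or 2, or without FFSS replicate 1 or 3 (adjusted p up to 0.109).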

How the results depend on the processing

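The rises of miR-34c-5p, miR-34b-3p and miR-34c-3p in P9 and of miR-34c-3p in FFSS kept their call in all settings tried. Without 1 library the highest adjusted p was 0.011, 0.0105, 0.00656 and 0.031 in that order. The number of miR-34 arms called ranged from 3 to 4 in P9 against P3 without 1 library. It ranged from 1 to 2 in FFSS against P3 (1 when replicate 1 or 3 of P3, or replicate 3 of FFSS, was left out). In P9 against FFSS it ranged from 1 (without FFSS replicate 3) to 4 (without P9 replicate 3). The 4 in either comparison with P9 include miR-34b-5p, which passed the filter on low counts through that group. Over all miRNAs the calls were 32, 90 and 151 in these 3 comparisons, and 16 to 51, 36 to 147 and 109 to 203 without 1 library.

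Signs turned where values were near 0. For miR-34a-5p in P9 against FFSS the value was −0.011 by library size only, −0.048 on log2(TPM + 1) and −0.045 on log2(TPM + 10), and −0.123 to 0.53 without 1 library. For miR-34a-5p in FFSS against P3 it was −0.264 to 0.398 without 1 library. miR-34c-5p in FFSS against P3 was −0.131 with no filter, −0.091 by limma-voom, −0.068 on log2(TPM + 1), −0.057 on log2(TPM + 10), and −0.527 to 0.176 without 1 library. miR-25-3p in P9 against P3 gave 0.073 under the filter of a mean of 50 counts, 0.045 after thinning, and −0.132 to 0.079 without 1 library.

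The miR-34c arm difference in FFSS was −1.75 (adjusted p = 0.0601) with a mean of at least 5 reads on each arm, and −2.13 to −1.48 without 1 library. In P9 against FFSS it was 1.76 to 2.40. The ratio of the cluster to miR-34a gave an exact permutation p of 0.411 over 3 groups from the 3p arms, where miR-34a has 0 to 10 reads. In FFSS against P3 that ratio was −0.181 from the 5p arms and −0.042 with miR-34c alone. The ratio of miR-34c to miR-34b from the 3p arms was 0.142 in FFSS against P3 and −0.468 in P9 against FFSS. Without 1 library it was −0.37 to 0.479 in P9 against P3 (0.292 without P3 replicate 3, 0.479 without P9 replicate 3), with an exact permutation p of 0.0357 to 0.329 over 3 groups. The causes of these changes were not tested.

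Deviations from the group means correlated at −0.503 to 0.131 between same-numbered libraries. Differently numbered libraries were not compared, so this cannot decide whether the numbers pair the samples. With the replicate block the calls over all miRNAs in FFSS against P3 went from 90 to 51, miR-34c-5p in FFSS against P3 was −0.079, and the ratio of the cluster to miR-34a had an exact permutation p of 0.0556, from fewer assignments. Depth limits miR-34b-5p most in FFSS replicate 1, the shallowest library, where 3 reads are 1.04 CPM and it had 4 reads.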
